A study of Mus musculus with 12 samples.

Results

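Mouse KP cells, a lung adenocarcinoma line, were compared when they carried both a BACH1 guide RNA and FEM1B siRNA (the double-loss cells) and when they carried neither. The comparison covers every expressed gene, meaning every gene with 10 or more counts in at least 3 of the 12 libraries of the series, which left 13312 of 24421 gene symbols. All cells share the KP genotype, with the KrasLSL-G12D/+ allele and the Trp53flox/flox allele pair. They were grown in the same serum medium. The double-loss group (labelled sgBACH1_siFEM1B) and the untouched group (sgCTRL_siCTRL) have 3 libraries each, so 6 of the 12 libraries stand in the comparison. The untouched cells had gone through the same steps with a control guide and a control siRNA. The remaining 6 libraries received the BACH1 guide with control siRNA (3) or the control guide with FEM1B siRNA (3). Cells were collected 48 hours after siRNA transfection, and the study asked how losing BACH1 or FEM1B changes gene programs linked to ferroptosis. The labels name 1 control line and 1 BACH1 knockout line, so an effect of the guide and a difference between those lines cannot be told apart. The control siRNA and the FEM1B siRNA are the only siRNA arms, and off-target silencing was not tested. The submitters describe the replicates as biological; the p-values measure the spread between them.

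BACH1 is a transcription factor that binds antioxidant and MAF response elements together with small MAF proteins and represses genes of heme breakdown, iron storage and glutathione synthesis. Heme binds BACH1, releases it from DNA and marks it for destruction. FEM1B is the substrate receptor of a cullin-RING ubiquitin ligase built on CUL2, and NRF2 (encoded by Nfe2l2) is the activator that competes with BACH1 for the same elements. Ferroptosis is a form of cell death driven by iron-dependent lipid peroxidation, held back by cystine import, glutathione and the lipid peroxidase GPX4.

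Depth was similar across the series: total counts ran from 16539168 to 22196999 per library, and a single count stood for 0.0446 to 0.0604 CPM, that is, counts rescaled to a library of 1000000 counts with the TMM factors of edgeR, which lay between 0.989 and 1.01. No library repeated another. Double-loss replicate 2 lay somewhat apart from its partners, with a chi-square per degree of freedom of 9.48 and 8.23 against them, where the partners differed from each other by 3.0. Untouched replicate 1 also lay apart (7.28 and 7.13, partners 3.63), as did siRNA-only replicate 3 (13.5 and 8.29, partners 5.99). Marker lists of other cell types were low or flat: the leukocyte list summed to 42.1 to 46.9 CPM in the untouched libraries and 39.8 to 46.0 in the double-loss libraries, with Adgre1, Cd3e, Cd3g and Tyrobp at 0, and the endothelial list to 1.41 to 2.27 and 1.99 to 2.75, with Emcn and Erg at 0. Of the 13 leukocyte members 11 did not pass the filter, each at 0.488 CPM or less in every library. Nearly all of the leukocyte sum came from the 2 tested members, neither of which was called. Fibroblast markers summed to 23.3 to 25.2 CPM and 9.55 to 11.2 CPM, with Thy1 and Fap at 0. Against the label of lung adenocarcinoma stood epithelial genes summing to 9670 to 10042 CPM and 8621 to 8779 CPM. The list of 9 alveolar type 2 markers summed to 115 to 120 CPM untouched and 127 to 132 CPM after double loss. Of that list Abca3 was at 116 ± 2.47 and 128 ± 2.96 CPM, whereas Sftpa1, Sftpd and Nkx2-1 had no count in any of the 12 libraries. Mesenchymal genes summed to 9339 to 10028 CPM and 9250 to 10220 CPM.

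Double loss changed much of the transcriptome. By edgeR's quasi-likelihood test with Benjamini-Hochberg adjustment over all genes, 8608 of 13312 genes (64.7%) had an adjusted p under 0.05, with 4320 higher (32.5%) and 4288 lower (32.2%). Most changes were small: 2338 of the higher and 2636 of the lower genes moved by less than 1.5-fold. Changes of at least 2-fold were seen for 1774 genes (13.3%), and here the 1090 higher genes (8.19%) outnumbered the 684 lower ones (5.14%). By 8-fold or more 297 genes were higher and 79 lower. Low genes made up most of the 2-fold imbalance: at an average log2 CPM of 3 or more, 293 genes were higher and 270 lower by at least 2-fold, and 80 tested genes had no untouched count against 6 with none after double loss. For 9083 genes (68.2%) every double-loss library lay on one side of all untouched libraries. The median gene stood at 0.01 on the log2 scale. For the same 13312 genes the BACH1 guide alone changed 6708 (50.4%) and the FEM1B siRNA alone 5982 (44.9%). These comparisons share the untouched libraries with the double-loss comparison, so their values are given side by side below. Where genes called in several comparisons at once are counted below, those calls are not independent.

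**Figure D1:**
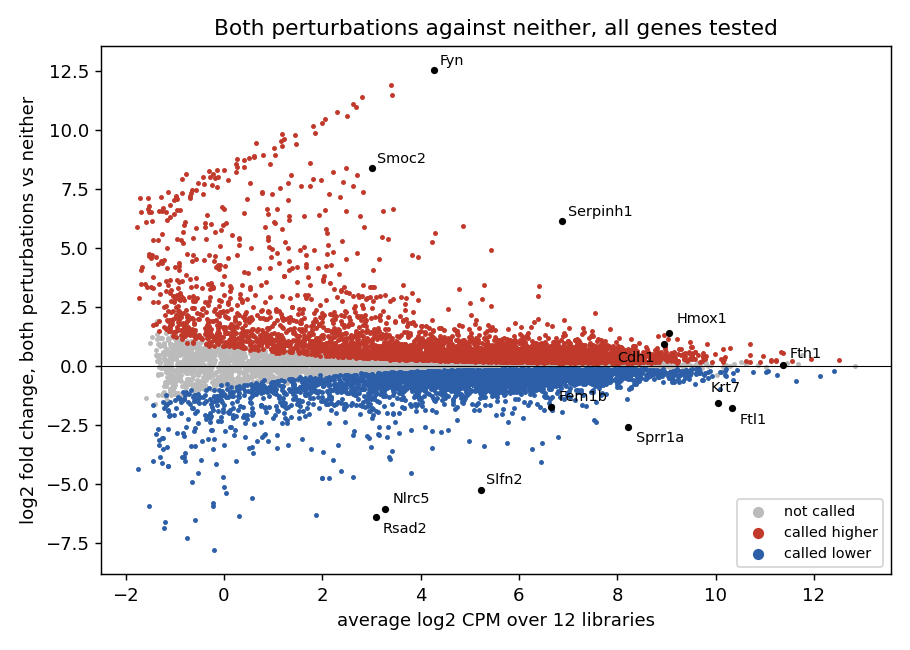
Log2 fold change of the double-loss cells over the untouched cells (vertical axis) against average log2 CPM (horizontal axis) for the 13312 genes tested, 1 point per gene, with called genes coloured by direction. More points lie far above 0 than far below it (297 against 79 past 8-fold); the diagonal band at the upper left holds genes with no count in the untouched cells, whose fitted fold change depends on the prior count.

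The targeted genes came first. Fem1b (chr9:62791824-62811648, GRCm38, as are all positions here) was at 157, 167 and 164 CPM in the untouched cells and at 46.2, 54.5 and 46.4 CPM in the double-loss cells. The groups were well separated, yet the transcript was still present in every double-loss library. The log2 fold change was -1.73 ± 0.08 (SE; adjusted p = 1.06e-12). Bach1 (chr16:87698954-87733346) stood at 29.5, 33.6 and 31.0 CPM without either perturbation and at 40.0, 39.3 and 40.5 CPM with both, a rise of 0.35 ± 0.08 (adjusted p = 0.000506). Frameshift mutations made by a guide need not lower a transcript, so Bach1 counts are no check of the knockout. FEM1B siRNA alone gave a Bach1 level of 41.4 ± 3.26 CPM (SD, n = 3), and the guide alone gave 29.5 ± 1.71 CPM.

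Partners of both proteins moved as well. Nfe2l2, encoding NRF2, was at 116, 116 and 115 CPM in the untouched libraries and at 59.7, 54.8 and 60.5 CPM after double loss, a fall of 0.99 on the log2 scale (SE 0.06, adjusted p = 2.72e-11), and the level with FEM1B siRNA alone was 55.3 ± 3.15 CPM. Bach2, the sister factor of BACH1, was scarce and rose from 0.649 ± 0.134 to 1.37 ± 0.337 CPM (log2 fold change 1.06 ± 0.34; 0.89 and not called without double-loss replicate 3). Keap1, the adaptor that targets NRF2 for degradation, did not pass the test (0.11, adjusted p = 0.166) and came to -0.17 with the median shift of its chromosome, described below, removed. Of 17 tested genes of FEM1 proteins and CUL2 ligases, 7 rose, 7 fell and 3 did not pass, beside 32.5% of all genes higher and 32.2% lower. Their median was 0.03 (-0.10 without double-loss replicate 2, -0.03 without untouched replicate 1 and -0.02 without double-loss replicate 3). Fem1c fell by 0.50 and Cul2 by 0.35, while the elongin B gene Tceb2 rose from 81.5 ± 5.60 to 135 ± 2.49 CPM and Nedd8, the ubiquitin-like activator of cullins, rose by 0.74.

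Genes known to be repressed by BACH1 did not rise as a group in double-loss cells. Of 18 such genes, 4 rose, 9 fell and 5 did not pass the test, with a median of -0.17 against 0.01 for all genes tested (-0.04 over members at an average log2 CPM of 3 or more, -0.43 with the median shift of each chromosome removed). The medians for the guide alone and the siRNA alone were -0.19 and -0.24. Of 28 tested NRF2 targets, 6 rose and 14 fell (median -0.14, or -0.35 with chromosome shifts removed). The called share of these lists, 72.2% and 71.4%, was close to the 64.7% of all genes.

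Hmox1 (chr8:75093618-75100593), encoding the heme-degrading enzyme HO-1, stood at 242, 258 and 203 CPM in untouched cells and at 493, 808 and 517 CPM in double-loss cells. The groups did not overlap, and replicate 2 was well above its partners. The log2 fold change was 1.37 ± 0.16 (adjusted p = 2.89e-07). With the guide alone Hmox1 was at 1094 ± 13.7 CPM, above every double-loss library, and with siRNA alone at 189 ± 49.6 CPM. Within the knockout line the transcript fell by 0.85 on the log2 scale with the siRNA (adjusted p = 0.000193).

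Ferritin genes parted from each other. Ftl1 (chr7:45457944-45459886), the light chain of the iron store, was at 2362, 2163 and 2205 CPM in untouched cells and at 597, 722 and 611 CPM after double loss. All 3 double-loss libraries lay far below (log2 -1.80 ± 0.10, adjusted p = 8.59e-12). The guide alone gave -0.57 and the siRNA alone -1.56. Fth1 (chr19:9980600-9985111), the heavy chain, had 2898 ± 122 CPM without and 2921 ± 151 CPM with both perturbations, a difference of 0.01 ± 0.05 (adjusted p = 0.863). FEM1B siRNA alone had taken Fth1 to 1881 ± 80.1 CPM, and the siRNA effect differed between the lines (interaction 0.65, adjusted p = 5.98e-05). Both ferritin genes have near-identical copies elsewhere in the genome, so reads may be split, and with the median shift of its chromosome removed Fth1 came to -0.45 (adjusted p = 1.61e-07).

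Glutathione genes also went different ways. Slc7a11 (chr3:50364936-50499087), the cystine importer, was at 150, 171 and 172 CPM in untouched cells and at 107, 63.9 and 112 CPM in double-loss cells. The groups were apart with replicate 2 the lowest, and the log2 fold change was -0.80 ± 0.19 (adjusted p = 0.00114). Slc7a11 stood at 55.3 ± 21.7 CPM with siRNA alone and at 177 ± 9.18 CPM with the guide alone. Gclm (chr3:122245487-122267215), the modifier subunit of the enzyme that starts glutathione synthesis, rose from 80.4, 84.6 and 84.4 CPM to 133, 154 and 136 CPM. No library overlapped (0.76 ± 0.06, adjusted p = 2.75e-09), and the guide alone gave 113 ± 3.99 CPM. Gclc, the catalytic subunit, did not pass (-0.14, adjusted p = 0.0641); it passed at -0.42 with its chromosome's shift removed and at -0.19 without untouched replicate 1.

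Several other targets fell. Osgin1 (chr8:119425882-119446257), a stress-responsive growth regulator, was at 171, 141 and 150 CPM without and at 66.6, 66.2 and 72.0 CPM with both perturbations. It was lower still with the guide alone (51.9 ± 3.63 CPM), and its log2 fold change after double loss was -1.18 ± 0.07 (adjusted p = 2.3e-11). Slc48a1, a heme transporter of the lysosome, fell from 272 ± 14.5 to 154 ± 5.28 CPM. The sulfiredoxin gene Srxn1 fell by 0.92 and thioredoxin reductase Txnrd1 by 0.41. Nqo1, the quinone reductase, was low and fell from 3.21 ± 0.416 to 0.937 ± 0.301 CPM. The microsomal glutathione transferase gene Mgst1 showed the deepest fall of the NRF2 list, from 65.0, 62.7 and 61.6 CPM to 7.03, 5.78 and 7.73 CPM (-3.21 ± 0.10). The guide alone took it to 6.91 ± 1.06 CPM. Cbr1, a carbonyl reductase, went against this trend and rose from 0.252 ± 0.0448 to 2.29 ± 0.677 CPM.

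**Figure D2:**
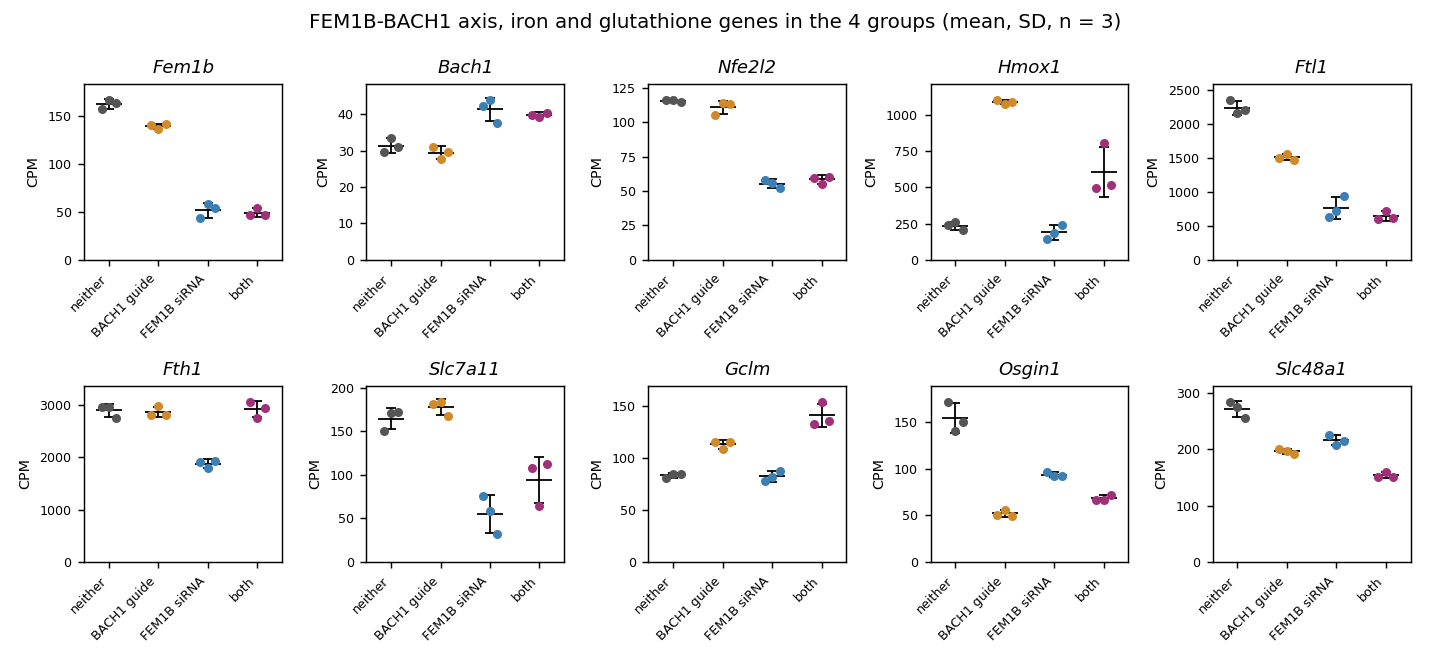
CPM (vertical axes, each from 0) of 10 genes of the BACH1, NRF2, iron and heme pathways in the 4 groups (neither, BACH1 guide, FEM1B siRNA, both), with 1 point per library, a bar at the mean of 3 and a whisker of 1 SD. Hmox1 is highest with the guide alone (1094 CPM), Ftl1 lowest with FEM1B siRNA present, and Fth1 is at 2921 CPM with both perturbations and 1881 CPM under siRNA alone.

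Promoter sequence was read for 2 of these targets and for the cystine importer, to show the elements these factors are known to use. The antioxidant response element core TGANNNNGC was found on either strand in 9 of 14 promoters of BACH1-repressed genes (64.3%) and in 17 of 22 NRF2-target promoters (77.3%), against 47.8% of the 10289 tested genes with a RefSeq promoter window (250 bases before to 50 after the start, GRCm38.p6). The amino acid response element TGATGNAA, bound by ATF4, was found in 7 of 21 promoters of ATF4 response genes (33.3%) and in 2.78% of all. Gclm, which rose, is shown over chr3:122245307-122245477 (plus strand) and Osgin1, which fell, over chr8:119436897-119437117 (plus strand). Slc7a11, which fell, is shown over chr3:50443623-50443863 (minus strand). Each stretch lies upstream of the transcript start used for its promoter window. Those transcript starts lie inside the gene spans given above, and so do the Osgin1 and Slc7a11 stretches. Capitals mark the antioxidant core in Gclm and Osgin1 and the amino acid response element in Slc7a11.
Gclm: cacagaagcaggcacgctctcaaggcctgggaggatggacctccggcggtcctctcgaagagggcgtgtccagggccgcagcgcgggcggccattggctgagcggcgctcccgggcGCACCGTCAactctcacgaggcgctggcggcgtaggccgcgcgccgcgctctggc
Osgin1: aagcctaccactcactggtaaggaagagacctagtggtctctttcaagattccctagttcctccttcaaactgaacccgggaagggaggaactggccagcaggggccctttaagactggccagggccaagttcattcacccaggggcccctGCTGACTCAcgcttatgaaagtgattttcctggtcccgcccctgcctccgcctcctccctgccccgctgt
Slc7a11: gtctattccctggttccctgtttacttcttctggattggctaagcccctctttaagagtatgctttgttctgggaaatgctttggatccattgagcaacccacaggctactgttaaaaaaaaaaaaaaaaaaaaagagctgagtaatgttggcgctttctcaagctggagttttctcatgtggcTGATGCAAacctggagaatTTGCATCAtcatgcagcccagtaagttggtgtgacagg
The capitals start 134 bases before the start in Gclm, 99 in Osgin1 and 66 and 47 in Slc7a11. Gclm and Osgin1 share the antioxidant core and moved in opposite directions. The Slc7a11 stretch also holds the antioxidant core, 97 and 45 bases before the start, which was not marked there. A match is a description of letters and no evidence of binding.

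Of 25 tested iron-handling genes 9 rose and 8 fell, a called share of 68% near the 64.7% of all genes (median -0.16, or -0.10 without untouched replicate 1 or double-loss replicate 2 and -0.03 over members at an average log2 CPM of 3 or more). Of 20 heme genes 6 rose and 6 fell, 60% (median 0.06, or -0.01 without untouched replicate 2). Slc40a1, the iron exporter ferroportin, fell from 1.82 ± 0.200 to 0.464 ± 0.229 CPM, and the ferroxidase ceruloplasmin, encoded by Cp, from 10.4 ± 1.47 to 1.49 ± 0.814 CPM. Tfrc, the transferrin receptor, rose from 271 ± 11.2 to 343 ± 41.3 CPM (0.34). The metal importer gene Slc39a8 rose from 4.25 ± 0.320 to 11.3 ± 0.0962 CPM, and the endosomal ferrireductase gene Steap3 from 0.279 ± 0.231 to 2.92 ± 0.982 CPM. The mitochondrial iron importers Slc25a37 and Slc25a28 rose by 0.90 and 1.08. Slc25a28 lies on chromosome 19, whose median gene was shifted upward (below), and came to 0.62 with that shift removed. Pgrmc1, a heme-binding membrane protein, had no count in any untouched library and 7.71, 9.88 and 9.0 CPM in the double-loss libraries, at least 186-fold higher taking 3 counts over the untouched group as the floor.

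Ferroptosis genes moved in both directions, and 32.5% of all genes were higher and 32.2% lower. Of 30 defence genes 11 rose and 11 fell (median 0.04, or -0.14 with chromosome shifts removed), and of 23 tested promoting genes 13 rose and 4 fell (0.22). Gpx4, the lipid hydroperoxidase, rose by 0.22 ± 0.08 (adjusted p = 0.0253), a call that was lost without untouched replicate 2 or 3 (0.21 and 0.20), without double-loss replicate 1 or 3 (0.17 and 0.19) and with its chromosome's shift removed (0.11). The transsulfuration genes Cth and Cbs rose, from 6.94 ± 1.54 to 14.2 ± 2.32 CPM and from 3.08 ± 0.271 to 10.5 ± 1.83 CPM. Hspb1, a small heat shock protein, rose from 4.92 to 17.1 CPM. Aifm2, encoding FSP1, fell by 0.27 and the acyl-CoA synthetase Acsl4 by 0.20 (not called without untouched replicate 2, -0.15, or double-loss replicate 1, -0.18), whereas Lpcat3, which loads polyunsaturated chains into phospholipids, rose by 0.42 (interaction 0.28). Ptgs2, often used as a marker of ferroptosis, fell from 460 to 171 CPM (-1.43 ± 0.09).

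The interferon program had the lowest median of the 32 gene lists. Interferon-stimulated genes encode antiviral effectors and are switched on through interferon-stimulated response elements in their promoters. Of 31 tested members 30 fell, 27 of them by at least 2-fold, none rose, and only Ifi35 did not pass (-0.04, adjusted p = 0.755). The median was -2.75, beside 0.01 for all genes and a background of 32.2% lower. Among members at an average log2 CPM of 3 or more, 14 fell and the median was -1.54, which was then not the lowest of the lists (keratinisation genes -2.58). The guide alone gave a median of -3.58 and the siRNA alone 0.69.

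Rsad2 (chr12:26442743-26456452), the antiviral enzyme viperin, had 11.7, 14.4 and 17.1 CPM in the untouched cells and 0.194, 0.108 and 0.181 CPM in the double-loss cells. The transcript was close to the detection floor in each double-loss library, and the change was -6.42 ± 0.34 (adjusted p = 2.99e-12). Ifit1 (chr19:34640889-34650009), which binds foreign RNA, fell from 11.7, 10.4 and 12.6 CPM to 0.485, 0.486 and 0.302 CPM. Isg15 (chr4:156199424-156200818), a ubiquitin-like modifier, was at 17.5, 18.2 and 19.6 CPM and then at 3.39, 1.94 and 2.84 CPM. It was at 1.02 ± 0.291 CPM with the guide alone and at 32.6 ± 9.28 CPM with siRNA alone, so that within the knockout line the siRNA went with a rise of 1.42 (adjusted p = 0.00128). Trim30a had no count after double loss and was at least 25.9-fold lower. Oas3, an RNA sensor, kept 2 counts over the 3 double-loss libraries, a ratio of 93.0 between the groups (95% counting interval 25.4 to 773). Slfn2, of the Schlafen family, fell from 86.3 ± 1.58 to 2.24 ± 0.285 CPM. Rtp4 fell as well (-3.87), together with the overlapping gene Masp1 (-3.60); reads of the overlap cannot be assigned between them.

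Promoters of this group were searched for their known element. The repeat of the interferon-stimulated response element (GAAA, 2 bases of any kind, GAAA) was found on either strand in 14 of 22 promoters of the list (63.6%) and in 364 of 10289 promoters of tested genes (3.54%). It was found in 15 of 57 promoters of genes that fell by 8-fold or more (26.3%) and in 8 of 221 of those that rose as much (3.62%). The set that fell includes members of the list, such as Rsad2 and Ifit1, so its share is not independent of the list's share. Promoters of the list were poor in CpG, with a median observed-to-expected ratio of 0.280 against 0.791 for all. Of the genes above, 4 that fell are shown upstream of their RefSeq starts, with the motif in capitals on whichever strand it lies: Rsad2 (chr12:26456453-26456702, minus strand), Ifit1 (chr19:34640749-34640869, plus strand), Isg15 (chr4:156200819-156201068, minus strand) and Cxcl10 (chr5:92348890-92349139, minus strand).
Rsad2: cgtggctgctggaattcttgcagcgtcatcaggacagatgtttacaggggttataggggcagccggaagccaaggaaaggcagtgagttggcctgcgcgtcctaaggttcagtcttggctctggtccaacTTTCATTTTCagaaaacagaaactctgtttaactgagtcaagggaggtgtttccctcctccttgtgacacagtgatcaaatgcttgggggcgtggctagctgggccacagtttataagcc
Ifit1: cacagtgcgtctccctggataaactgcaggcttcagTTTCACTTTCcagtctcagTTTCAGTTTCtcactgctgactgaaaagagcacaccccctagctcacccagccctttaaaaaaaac
Isg15: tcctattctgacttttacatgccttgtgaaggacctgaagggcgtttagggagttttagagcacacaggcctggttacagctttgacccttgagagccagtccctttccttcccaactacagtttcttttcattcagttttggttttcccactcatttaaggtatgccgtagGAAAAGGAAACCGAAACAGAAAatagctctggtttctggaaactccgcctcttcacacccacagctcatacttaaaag
Cxcl10: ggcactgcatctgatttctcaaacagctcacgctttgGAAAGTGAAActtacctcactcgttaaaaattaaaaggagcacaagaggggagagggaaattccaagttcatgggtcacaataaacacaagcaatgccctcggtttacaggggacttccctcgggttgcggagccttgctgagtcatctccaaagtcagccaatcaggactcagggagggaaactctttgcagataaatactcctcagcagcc
The motif begins 120 bases before the start in Rsad2, 104 and 85 bases before it in Ifit1 and 213 in Cxcl10. Isg15 holds 3 overlapping matches between 78 and 66 bases before its start.

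Antigen presentation followed only in part. Of 13 tested MHC class I genes 3 rose, 7 fell and 3 did not pass (median -0.19), beside 32.5% of all genes higher and 32.2% lower. Nlrc5 (chr8:94434335-94527272), the transactivator of class I genes, fell from 15.5, 19.2 and 17.2 CPM to 0.242, 0.270 and 0.241 CPM (-6.07 ± 0.22, adjusted p = 1.2e-14). The peptide transporter gene Tap2 fell from 21.9 ± 0.934 to 8.16 ± 0.468 CPM. The class I light chain gene B2m fell by only 0.33, from 754 ± 19.2 to 599 ± 8.31 CPM, and the heavy chain gene H2-D1 by 0.23. H2-K1 went up, from 36.3, 35.5 and 35.5 CPM to 67.8, 86.0 and 60.1 CPM (1.0 ± 0.10), which was less than the sum of its single changes (interaction -0.76, adjusted p = 0.00348). The interferon-induced membrane protein gene Ifitm1 fell from 172 ± 15 to 10.2 ± 1.34 CPM; it has close relatives with shared sequence.

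Cytokine and chemokine genes under NF-kB divided by gene. Of 17 tested, 11 rose and 6 fell with none left uncalled (median 0.71), beside 32.5% of all genes higher and 32.2% lower. Cxcl10 and Ccl5, chemokines for T cells that interferon also induces, fell from 34.5 ± 7.84 to 4.98 ± 1.73 CPM and from 28.0 ± 3.34 to 4.28 ± 0.891 CPM. Csf3, encoding G-CSF, fell by 1.62. The neutrophil chemokine gene Cxcl5 rose from 31.8 to 98.0 CPM, Ccl20 from 0.160 ± 0.101 to 1.71 ± 0.595 CPM, and the adhesion receptor gene Icam1 from 27.9 to 62.3 CPM. The AP-1 family had 4 genes higher and 3 lower of 11, a called share of 63.6% near the 64.7% of all genes. Its median was -0.09, and 5 were lower without double-loss replicate 2. Fos rose from 4.24 to 11.5 CPM and Atf3 fell from 31.5 ± 1.97 to 19.9 ± 1.96 CPM.

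The largest rises were transcripts nearly missing from untouched cells, among them the 80 genes without a count there. Fyn (chr10:39369743-39565381), a SRC family kinase, had no count in untouched cells and 36.4, 37.8 and 37.2 CPM after double loss, at least 781-fold higher. It was at 41.2 ± 2.10 CPM with the guide alone and at 0.0488 ± 0.0845 CPM with siRNA alone. Acsl6, an acyl-CoA synthetase, was at least 502-fold higher, and the transcription factor genes Sox12, Zic2 and Gata4 at least 377-fold, 358-fold and 289-fold. Stk39, Nme4 and Cdcp1 followed, at least 259-fold, 226-fold and 201-fold higher. Smoc2, a secreted matrix protein, had 2 untouched counts and a ratio of 399 (95% counting interval 110 to 3303). Promoters of the 80 genes had a median CpG ratio of 0.698.

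Serpinh1 (chr7:99345375-99353239), the collagen chaperone HSP47, combined a high level with a large change: 3.5, 3.77 and 2.76 CPM in untouched cells and 244, 226 and 234 CPM in double-loss cells. Every double-loss library was far above every untouched one (6.13 ± 0.09, adjusted p = 9.99e-21), and the guide alone gave 232 ± 7.29 CPM. Creb3l1, a transcription factor of secretory and collagen genes, rose from 0.173 ± 0.115 to 17.2 ± 0.893 CPM. The receptor phosphatase gene Ptpru rose from 0.958 ± 0.272 to 59.8 ± 3.85 CPM, Bmp2, a secreted growth factor, from 0.726 ± 0.243 to 36.3 ± 0.469 CPM, and Jag2, a Notch ligand, from 2.62 ± 0.566 to 79.6 ± 6.19 CPM. Rab3b, of vesicle transport, rose by 5.25, the decoy receptor gene Tnfrsf11b by 5.36 and Emilin2 by 4.68. Pmaip1, encoding the BH3-only protein NOXA, rose from 0.237 ± 0.285 to 24.6 ± 2.65 CPM. The guide alone gave rises between 4.70 (Rab3b) and 6.80 (Creb3l1) on the log2 scale for the genes of this paragraph.

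Other large falls, outside the interferon list, were seen at an average log2 CPM of 3 or more. Tmem176b fell from 117 ± 2.39 to 10.1 ± 1.81 CPM, beside its overlapping neighbour Tmem176a. Itgb7, an integrin chain, fell from 38.9 ± 3.38 to 3.48 ± 0.586 CPM, the cytoplasmic phosphatase gene Ptpn13 from 173 ± 20.2 to 17.6 ± 1.29 CPM and the surface antigen gene Ly6c1 from 107 ± 7.15 to 11.1 ± 2.22 CPM. The water channel gene Aqp8 fell from 22.3, 23.5 and 19.5 CPM to 1.5, 1.46 and 1.27 CPM. With the guide alone Aqp8 was at 0.224 ± 0.160 CPM (interaction 2.94, adjusted p = 0.000294).

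Of 19 tested epithelial genes 11 rose, 4 fell and 4 did not pass (median 0.31), beside 32.5% of all genes higher and 32.2% lower; at an average log2 CPM of 3 or more, 7 rose and 2 fell. Cdh1, encoding E-cadherin, rose from 309, 332 and 323 CPM to 627, 571 and 647 CPM. The desmosome gene Dsp was at 0.273, 0.0471 and 0 CPM in the untouched libraries and at 8.92, 10.7 and 9.0 CPM in the double-loss libraries, where the guide alone gave 2.56 ± 0.847 and the siRNA alone 0.342 ± 0.0854 CPM. Epcam had 2 untouched counts and a ratio of 48.2 (95% counting interval 12.9 to 404). Ocln, of tight junctions, rose from 0.0961 ± 0.0519 to 2.66 ± 0.246 CPM, and Mal2 was at least 18.1-fold higher from no untouched count. Elf3, an epithelial transcription factor, rose from 14 ± 0.856 to 38.7 ± 2.55 CPM. Keratin 7 went down: Krt7 was at 1728, 1783 and 1687 CPM and then at 591, 564 and 599 CPM (-1.57 ± 0.05), against 446 ± 29.2 CPM with the guide alone. In bulk RNA, fewer cells of a kind and less RNA per cell cannot be told apart.

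Of 17 tested mesenchymal genes 6 rose and 8 fell (median -0.15, or -0.03 with chromosome shifts removed), against 32.5% and 32.2% of all genes. Snai2 fell from 50.6 ± 4.31 to 24.8 ± 4.81 CPM, Sparc from 701 ± 7.56 to 449 ± 9.24 CPM and the N-cadherin gene Cdh2 by 0.49. Twist1 rose from 2.59 ± 0.186 to 18.3 ± 0.274 CPM, and Tagln rose from 0.998 ± 0.207 to 2.38 ± 0.664 CPM. Of 21 collagen and matrix genes 5 rose and 9 fell (-0.08, or -0.20 without double-loss replicate 2, -0.17 without replicate 1 and -0.04 without replicate 3). Here the laminin chain gene Lamb3 rose by 1.68, while Col1a1 and Col1a2 fell by 1.24 and 2.78. Those collagens are also on the fibroblast list, with sums of 23.3 to 25.2 CPM untouched and 9.55 to 11.2 CPM after double loss. Of the 3 tested members of that list 2 fell and 1, Pdgfra, rose (log2 fold change 3.08). The part of that list in the result was not tested. YAP targets had 3 higher and 8 lower of 13 (-0.17). Ctgf fell from 249 to 76.7 CPM and Ptpn14 from 59.6 ± 3.30 to 27.5 ± 2.33 CPM, and F3, the tissue factor gene, rose from 71.7 ± 3.68 to 144 ± 6.60 CPM.

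Of 7 tested keratinisation genes 5 fell and none rose (median -1.36, guide alone -2.28, siRNA alone 0.74), beside 32.2% of all genes lower. The median ran from -2.58 (3 lower, at an average log2 CPM of 3 or more) to -0.93 (no filter). Sprr1a, a cornified envelope precursor, was at 236, 261 and 283 CPM and then at 38.1, 48.0 and 42.1 CPM. Its relatives have near-identical copies, so the split of reads among them is uncertain. Of the 12 listed markers of airway and gut lineages 8 were tested, with 6 higher and 1 lower (median 0.76), beside 32.5% of all genes higher. The airway markers Scgb1a1, Foxj1, Trp63 and Krt5 did not pass the filter, at 0.217 CPM or less in every library. The regulators Hnf4a and Cdx2 of gut and liver epithelium rose from 29.2 ± 3.21 to 104 ± 6.94 CPM and from 24.3 ± 2.09 to 54.8 ± 3.21 CPM. Vil1, of the brush border, rose from 0.888 ± 0.126 to 5.03 ± 0.683 CPM with 3.42 ± 0.439 CPM under siRNA alone. Sox9, a factor of lung progenitors, fell by 0.82.

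Lipid synthesis genes were tested as 2 lists. Of 23 cholesterol genes 15 rose, 1 fell and 7 did not pass (median 0.47, guide alone 0.19, siRNA alone 0.23), and of 14 tested fatty acid genes 9 rose and 1 fell (0.31, or 0.13 with chromosome shifts removed), beside a background of 32.5% higher. Hmgcs1, at the entry of the mevalonate pathway, rose from 125 to 257 CPM, the squalene synthase gene Fdft1 from 54.9 to 115 CPM and the sterol reductase gene Tm7sf2 from 22.8 to 56.8 CPM. Sc5d rose by 0.79. Acaca, the carboxylase that commits carbon to fatty acids, rose from 55.7 ± 1.42 to 72.8 ± 3.12 CPM, and its isoform Acacb from 0.829 ± 0.25 to 2.16 ± 1.12 CPM; Acacb came to 0.88 without double-loss replicate 3, against 1.36 with it. The elongase gene Elovl5 rose by 0.69, a value of 0.42 with its chromosome's shift removed, and Tm7sf2 came to 0.86 from 1.32 in that setting.

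Of 18 hypoxia targets 12 were higher and 3 lower, beside 32.5% and 32.2% of all genes (median 0.28, guide alone 0.27, siRNA alone 0.44). Bnip3, Ddit4 and Pfkfb4 rose by 0.64, 0.65 and 0.89, and Egln3, an oxygen-sensing prolyl hydroxylase, fell by 0.57. Adm, the adrenomedullin gene, was at 26.8, 21.5 and 22.2 CPM and then at 33.7, 92.7 and 35.9 CPM. Replicate 2 stood far above its partners, and without it the log2 fold change of Adm was 0.57 in place of 1.20. Of 19 glycolysis genes 8 rose and 5 fell (0.13). Without double-loss replicate 2 the lower hypoxia targets came to 5 and the higher glycolysis genes to 5. Aldoc and Eno2 rose by 0.89 and 1.34, Gapdh, which has many copies in the genome, by 1.15, and the muscle-type phosphofructokinase gene Pfkm fell by 0.46. Of 35 nuclear genes of the respiratory chain 19 rose and 7 fell (0.25), among them Cox8a, up from 207 to 459 CPM (0.69 in place of 1.15 with the chromosome shift removed), and Atp5a1, down by 0.53.

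Stress programs were mixed. Called shares were 64% for the ATF4 list, 44.4% for ER chaperones and 69.2% for the lysosome list. Of all genes 64.7% were called, 32.5% higher and 32.2% lower. ATF4 response genes had 6 higher and 10 lower of 25 (median -0.21, guide alone 0.11, siRNA alone -0.38). Atf5 fell from 122 ± 4.04 to 58.7 ± 15.1 CPM and Cebpb by 1.11, whereas Nupr1 rose by 0.80 and Stc2 was at least 64.3-fold higher from no untouched count. ER chaperone genes had 4 higher and 4 lower of 18 (0.05), or 7 and 2 with chromosome shifts removed, and 2 lower without untouched replicate 2 or double-loss replicate 3. Manf and Xbp1 rose by 0.95 and 0.53 and Canx fell by 0.47. Lysosome and FLCN-TFE genes had 9 higher and 9 lower of 26 (0.01). In that list Flcn, a regulator of TFE factors, rose by 0.72, Rragd, encoding the RagD GTPase, had 3 untouched counts, all in replicate 1, and a ratio of 52.5 (95% counting interval 17.6 to 258), and the protease gene Ctsl fell by 0.42.

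Genes of the cell cycle were tested as a replication and a mitosis list. Called shares were 40% for replication, 90% for mitosis and 71.4% for the p53-linked genes below. Beside them, 64.7% of all genes were called, 32.5% higher and 32.2% lower. DNA replication genes had 3 higher, 5 lower and 12 not called of 20 (median 0.03). This balance turned with chromosome shifts removed (8 higher, 4 lower), and 3 were lower without untouched replicate 3 or double-loss replicate 1. Pcna rose from 142 ± 6.19 to 219 ± 21.1 CPM and Mcm2 fell by 0.40. Mitosis genes had 12 higher and 6 lower of 20 (0.21). Cdk1 rose from 148 to 257 CPM and Ccnb2 from 126 ± 8.75 to 208 ± 3.13 CPM, while Kif20a and Cenpe fell by 0.65 and 0.53. Of 14 p53-linked genes 6 rose and 4 fell (0.05) in these cells, whose Trp53 alleles are floxed; Perp and Phlda3 each rose by 0.75 and Zmat3 fell by 0.85. Trp53 was itself counted at 6.18 ± 1.08 CPM in untouched and 9.28 ± 0.832 CPM in double-loss cells (0.59).

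**Figure D3:**
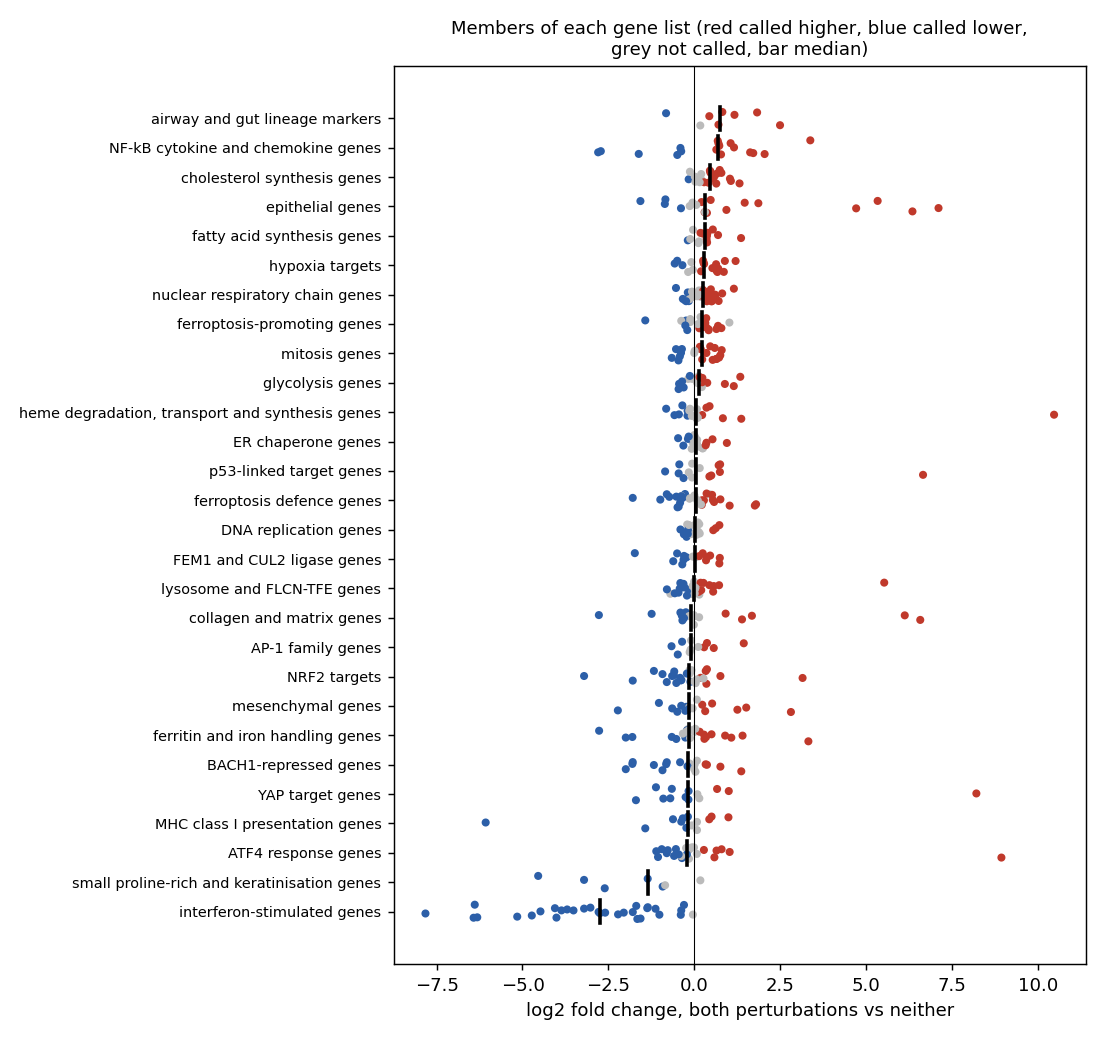
Log2 fold change of double-loss over untouched cells (horizontal axis) for the tested genes of each gene list (rows), 1 point per gene, red where higher, blue where lower and grey where not called, with a bar at the list's median. The interferon list lies furthest to the left (median -2.75, 30 of 31 lower), and the cholesterol list sits to the right of 0 (median 0.47, 15 of 23 higher).

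Some genes went furthest when both perturbations were combined. With the double-loss group called in the same direction against each of the other 3 groups, and a difference of at least 0.5 on the log2 scale in each, 71 genes were highest there and 116 lowest at an average log2 CPM of 3 or more. Only ordinary gene names were counted, leaving out symbols such as gene models. All of these comparisons share the double-loss libraries, so their calls are not independent. Both perturbations against siRNA alone called 54.5% of all genes (28.1% higher, 26.4% lower), and against the guide alone 41.6% (21.9% higher, 19.7% lower). Cd82, a tetraspanin, was at 9.52 ± 1.48 CPM with neither, 29.9 ± 0.803 with the guide, 29.3 ± 1.61 with the siRNA and 60.8 ± 1.86 with both. Aqp3, a glycerol and water channel, went from 10.8 ± 1.61 through 40.6 ± 2.19 and 24.4 ± 0.0793 to 76.6 ± 0.989 CPM in the same order of groups. The heparan sulfotransferase gene Hs3st1 stood at 2.95 ± 0.607, 4.92 ± 0.196, 11.4 ± 1.34 and 31.4 ± 1.23 CPM. On the log2 scale the steps of Hs3st1 came to more than their sum (interaction 0.72, adjusted p = 0.0323) and those of Cd82 to less (-0.59, adjusted p = 0.00917).

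Falling genes of this kind were lowest with both. Sorbs2, a cytoskeletal adaptor, was at 169 ± 8.75, 105 ± 4.03, 83.0 ± 6.78 and 51.9 ± 1.64 CPM in the same order. For Sorbs2 the interaction was 0.01 ± 0.09 (adjusted p = 0.971). Lgmn, a lysosomal protease, stood at 130 ± 6.32, 72.7 ± 4.35, 86.0 ± 5.95 and 41.6 ± 0.798 CPM. Htra1, a secreted protease, was at 140 ± 5.56, 111 ± 2.94, 89.7 ± 3.79 and 52.0 ± 5.88 CPM, and Il5ra, a cytokine receptor chain, at 88.5 ± 10.3, 53 ± 3.52, 70.1 ± 4.32 and 25.9 ± 0.772 CPM. Both fell further than the sum of the single steps (interactions -0.45 and -0.70, adjusted p = 0.0104 and 0.00138).

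Others were pulled in opposite directions by the single perturbations, each by at least 2-fold. With the same limits of level and name, 12 genes met that rule, in comparisons that share the untouched libraries. The guide alone called 24.2% of all genes higher and 26.2% lower, and the siRNA alone 22.1% and 22.8%. Sprr1a was at 10.2 ± 1.44 CPM with the guide alone, 884 ± 88.8 CPM with the siRNA alone and 42.7 ± 5.02 CPM with both, against 260 ± 23.3 CPM with neither. Tspan1, a tetraspanin, went to 0.336 ± 0.172 and 24.7 ± 3.46 CPM with the single perturbations and was at 4.39 ± 1.31 CPM with both. Against the 5.07 ± 0.477 CPM of untouched cells this difference did not pass the test (-0.20 ± 0.20, adjusted p = 0.385). Adap1 stood at 4.82 ± 0.409, 0.746 ± 0.180, 19.6 ± 2.48 and 7.77 ± 0.356 CPM. Sema7a, a membrane semaphorin, was at 27.5 ± 1.61, 11.9 ± 1.39, 70.6 ± 7.77 and 39.9 ± 1.64 CPM. The apolipoprotein gene Apoc2 did not settle between: it was at 1.77 ± 0.0657, 0.395 ± 0.0241 and 12.2 ± 0.452 CPM and reached 18.0 ± 0.849 CPM with both (interaction 2.71, adjusted p = 1.06e-05). Neto2 ran the other way, from 2.89 ± 0.724 to 19.8 ± 1.29 with the guide, 1.12 ± 0.302 with the siRNA and 12.0 ± 2.13 CPM with both.

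**Figure D4:**
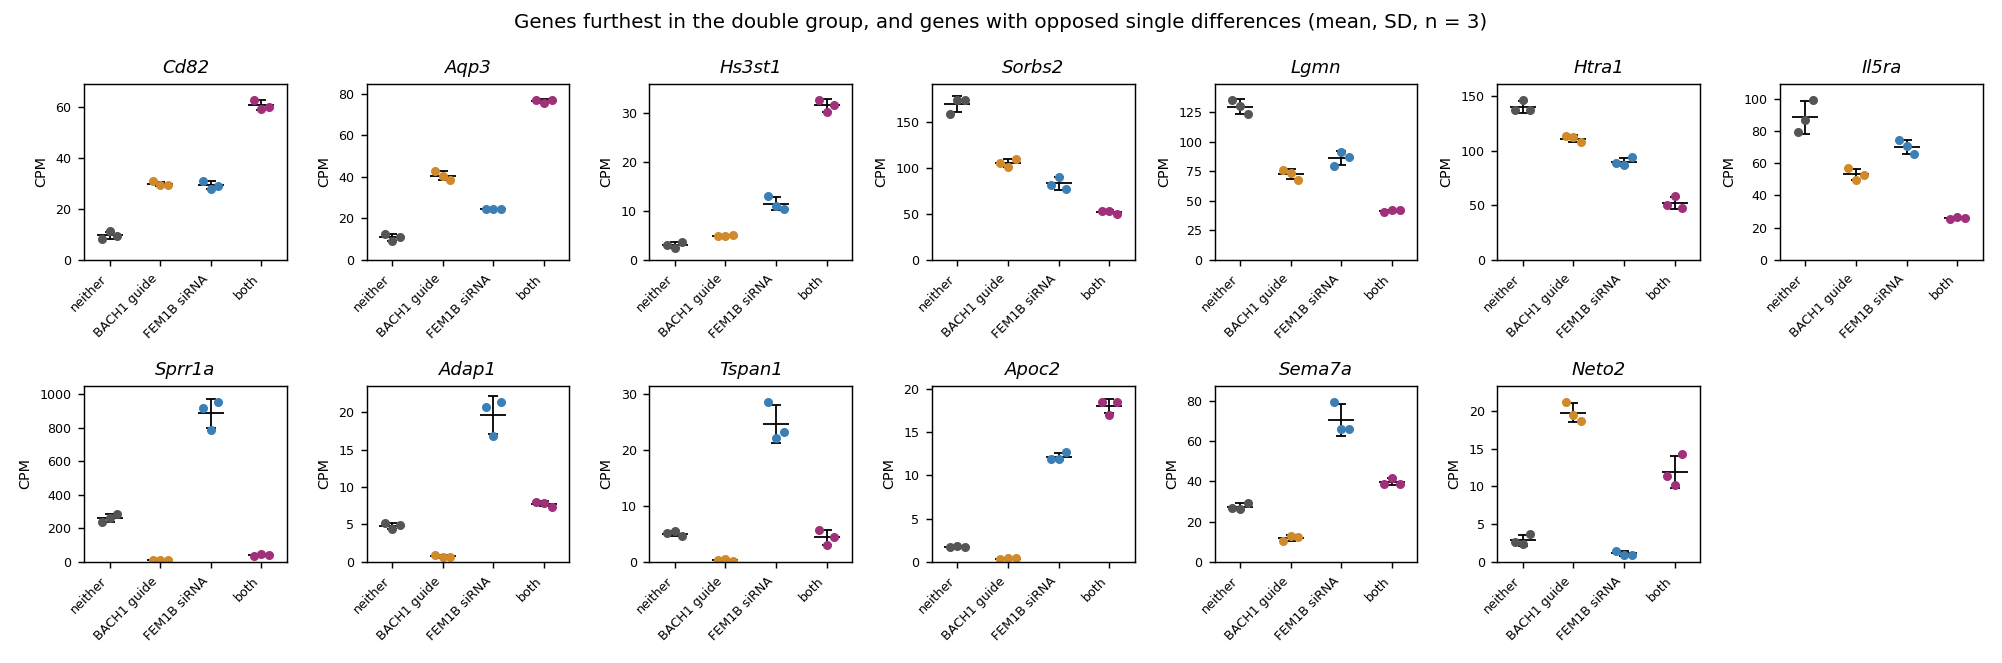
CPM (vertical axes, each from 0) in the 4 groups (neither, BACH1 guide, FEM1B siRNA, both) for 13 genes, with 1 point per library, a bar at the mean of 3 and a whisker of 1 SD. Cd82, Aqp3 and Hs3st1 are highest with both, Sorbs2, Lgmn, Htra1 and Il5ra lowest with both, and Sprr1a, Adap1, Tspan1 and Sema7a lie between the single perturbations.

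Whether the siRNA acted alike in both lines was tested directly by the interaction, which passed for 805 genes (6.05%), 459 positive (3.45%) and 346 negative (2.60%). The count depended on single libraries and was 1863 without double-loss replicate 2 and 297 without double-loss replicate 1. Osgin1 had the smallest p among genes at an average log2 CPM of 3 or more: the siRNA lowered it in control cells (-0.72) and raised it in knockout cells (0.39), an interaction of 1.11 (adjusted p = 8.18e-06). Gsta4, a glutathione transferase for lipid aldehydes, was lower after each single perturbation (34.1 ± 1.01 and 41.6 ± 1.86 CPM) than untouched (52.2 ± 3.29 CPM) and stood at 51.9 ± 5.01 CPM with both (interaction 0.93). Its double-loss difference of -0.01 (adjusted p = 0.94) became -0.28 and called with its chromosome's shift removed. The dehydrogenase gene Hsd17b14 had the same shape, at 12.6 ± 0.663 CPM untouched, 8.66 ± 1.41 and 8.19 ± 0.867 CPM singly and 16.6 ± 1.48 CPM with both (1.55). Havcr2, encoding TIM-3, rose with each perturbation, with levels of 13.2 ± 0.588, 47.5 ± 1.08, 28.2 ± 1.11 and 51.3 ± 3.85 CPM in the order neither, guide, siRNA and both (interaction -0.98, adjusted p = 4.73e-05).

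Gene position moved with the fold change on some chromosomes. The median gene of chromosome 19 was higher by 0.45 on the log2 scale, that of chromosome 9 by 0.27 and that of chromosome 14 by 0.23, whereas the medians of chromosomes 12, 18 and 15 were -0.28, -0.16 and -0.13. The SD of the chromosome medians was 0.17. Gene copy number was not measured, and its part in these shifts was not tested. With the shift removed, the log2 fold change itself grew or shrank by a factor of more than 1.5 for some named genes. Beside those given with their genes above, the log2 values were then 0.51 for Sc5d, 0.45 for Ccnb2, 0.26 for Sema7a, -0.21 for B2m, -0.38 for H2-D1, -0.31 for Fem1c, -0.16 for Cul2, -0.29 for Egln3, -0.35 for Atp5a1 and -0.31 for Cdh2. After each gene's chromosome median was taken off, 8283 of 13257 placed genes were called.

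**Figure D5:**
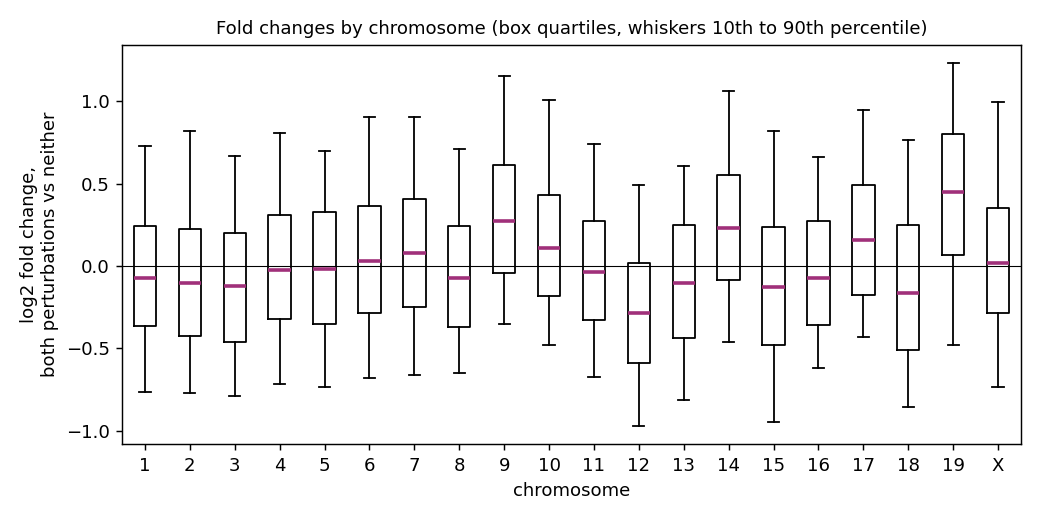
Log2 fold change of double-loss over untouched cells (vertical axis) for the tested genes of each chromosome (horizontal axis), with the box at the quartiles, the line at the median and whiskers at the 10th and 90th percentiles. Chromosome 19 sits highest (median 0.45) and chromosome 12 lowest (median -0.28).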

How the data were processed

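RNA was read from 12 libraries of KP cells, 3 in each of 4 groups, prepared with a stranded mRNA kit per the labels' protocols. The authors deposited 1 table of raw counts per gene symbol and library, and the submitters' processing notes name featureCounts 1.6.4 from Subread beside SAMtools 1.9 and DESeq2 1.26.0, with mm10 as the build. Which annotation and which strand option were used in counting is not given in the sources used here, so reads of overlapping and antisense genes cannot be told apart. Of 24421 symbols 6056 had no count in any library. A gene's position came from RefSeq (GRCm38.p6) for 13257 of the 13312 genes tested.

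Deposited counts were fitted with edgeR 4.0.16 (quasi-likelihood test, TMM factors, 1 mean per group, 8 residual degrees of freedom) in R 4.3.3. Genes needed 10 or more counts in at least 3 libraries, Benjamini-Hochberg adjustment ran over all genes tested, and a gene was called at an adjusted p under 0.05. An SE is that of the log2 fold change, taken from the fold change and its F value, and CPM are given as mean ± SD (n = 3). The interaction subtracts the siRNA difference of control cells from that of knockout cells. Library totals of 16539168 to 22196999 counts put 3 counts, the floor for lower bounds, near the limit of detection; 95% intervals of ratios cover counting error only.

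The members and gene lists were chosen with earlier results of these data known. Named genes are the 14 largest rises and falls whose groups did not overlap at an average log2 CPM of at least 3, up to 4 called genes of smallest p from each of 32 lists, a pathway list, 8 genes furthest in the double-loss cells, 6 moved in opposite directions by the single perturbations, and 6 of smallest interaction p. Some of these are left out of the text, and a few genes are not reported here. Named outside this rule, after their values were seen, are Isg15, Cp, Steap3, Cbr1, Gata4, Zic2, Trim30a, Cth, Cbs, Acacb, Ocln, Epcam, Mal2, Atf5, Cebpb, Adm, Ccl20, Csf3, Oas3, Ifi35, B2m, H2-D1, Stk39, Nme4, Cdcp1, Gapdh, Snai2 and Tagln. Alternatives were a fit of 6 libraries, RLE factors, other low-count filters, DESeq2 1.42.0, a replicate block, removal of chromosome medians and leaving out each library.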

Additional observations from a re-analysis of the deposited data

Results flagged for a closer look

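The FEM1B siRNA difference in knockout cells departed from that in control cells for 805 genes by the interaction test of edgeR. Of the named genes among them, 32 are listed here as log2 interactions (positive where the siRNA difference was higher in knockout cells). Each was singled out because its interaction was called in the main fit. Interactions of single genes were not checked in the alternative settings, where the count of called genes moved widely (below). Genes of the BACH1, NRF2 and iron pathways had values of 1.11 for Osgin1, 0.93 for Gsta4, 0.65 for Fth1 and 0.33 for Gclm. Lipid and sterol genes had 2.71 (Apoc2, an apolipoprotein), 0.40 (Fdft1), 0.28 (Lpcat3), -0.28 (Scd2, a desaturase), -0.28 (Vldlr, a lipoprotein receptor) and 1.55 (Hsd17b14). Immune and surface genes had 1.58 (Ifitm1), -0.76 (H2-K1), 0.44 (Icam1), -0.98 (Havcr2), -0.70 (Il5ra), -0.59 (Cd82), 1.43 (Tspan1) and -1.16 (Tnfrsf11b). Epithelial and matrix genes had -0.38 (Cdh1), 0.66 (Krt7), -0.79 (Lamb3), -0.45 (Htra1), 0.72 (Hs3st1) and -1.14 (Jag2). Stress and metabolic genes had -0.44 (Atf3), 0.72 (Atf5), -0.61 (Manf), -0.47 (Aldoc), -0.24 (Hk1, a hexokinase) and 0.30 (Ndufv2, of complex I). The water channel gene Aqp8 had 2.94 and Adap1 had 1.36.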

How the results depend on the processing

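The double-loss count of 8608 ran from 6828 (average log2 CPM of at least 3, which tests 10001 genes) to 8805 (no filter), with 8485 by DESeq2 and 7931 to 8795 when 1 library was left out. Higher genes made up 49.6% to 51.0% of called genes. With the minimum level, 293 genes were higher and 270 lower by at least 2-fold, with fewer genes tested. Removing chromosome medians gave 8283 calls, 7367 of them shared. The interaction count of 805 became 1393 without a filter and 1127 by DESeq2; leaving out 1 library gave 297 to 1863. It was 381 without untouched replicate 3, 305 and 306 without guide-only replicates 1 and 3, 395 without siRNA-only replicate 2, and 297, 1863 and 300 without double-loss replicates 1, 2 and 3. Over 196 named genes and 20 alternatives, 3852 of 3884 values kept their call status, and the called ones among them kept direction. Of the rest, 26 lost the call, 3 gained it and 3 reversed with a call before or after. Changes of sign in genes uncalled both before and after were counted as kept, such as Ifi35 (-0.11 to 0.03) and Tspan1 (-0.44 to 0.01). Removing chromosome medians reversed Fth1 (-0.45), Keap1 (-0.17) and Abca3 (-0.0013); the cause was not tested. It also ended the calls of Gpx4 (0.11), Me1 (0.09), Nfe2l1 (-0.13), Scd2 (0.08), Sel1l (-0.04) and Vldlr (0.13).

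The same replicate numbers did not pair the libraries: deviations of same-numbered libraries correlated at -0.120 to 0.0739. With the replicate number as a block, 8435 genes were called for double loss (8405 shared) and 598 for the interaction. In the 6 libraries compared, 5 correlated best with their own number, a hint from the data and not the design. Low counts limit genes such as Trim30a, Oas3, Epcam, Mal2 and Rragd, whose ratios rest on 3 or fewer counts in 1 group.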
